A study of Mus musculus with 10 samples.

Results

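The 10 genes described here set how much iron the liver senses, stores and releases: the hormone genes *Hamp* and *Hamp2*, the BMP ligand *Bmp6*, the BMP target genes *Id1* and *Smad7*, and the iron transport, uptake, sensing, export and storage genes *Trf*, *Tfrc*, *Tfr2*, *Slc40a1* and *Fth1*. They were taken by gene name from a table of 54532 genes, and all 10 had enough reads to be tested, among 13306 such genes. RNA sequencing had been done on livers of 10 mice after 7 weeks of high-fat diet (HFD), with 5 mice per genotype. ASK1f/f mice, the littermate controls, were homozygous for a murine ASK1 cDNA placed behind a loxP-flanked stop cassette in the ROSA26 locus. ASK1+hep mice carried the same insertion and Cre driven by the albumin promoter, which removes the stop in hepatocytes, so the insertion itself was common to both groups. Mice were on a C57BL/6J background, began HFD at 6 weeks of age and were fasted for 5 h before tissue was taken. ASK1, encoded by *Map3k5*, is a stress-activated kinase upstream of JNK and p38.

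Hepcidin, the peptide made from *Hamp*, is secreted by hepatocytes, binds the iron exporter ferroportin (*Slc40a1*) on macrophages, enterocytes and hepatocytes, and causes it to be degraded, so that iron is held in cells and plasma iron falls. Iron-loaded liver sinusoidal endothelial cells release BMP6, which acts on BMP receptors of hepatocytes and, through SMAD transcription factors, raises *Hamp*, *Id1* and *Smad7*. Inflammation raises *Hamp* by a separate route, through interleukin 6 and STAT3.

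The bases just before a gene's start carry elements through which these routes reach *Hamp*, and *Hamp2*, a tandem copy found in mice, is shown beside it because the copies were read at very different levels. The stretches are the 160 bases before each RefSeq start on GRCm38.p6, at chr7:30944030-30944189 for *Hamp* and chr7:30924182-30924341 for *Hamp2*, both on the minus strand. The gene spans on which reads were counted begin at chr7:30944032 for *Hamp* and chr7:30924681 for *Hamp2*. By these spans the whole *Hamp2* stretch lies inside the gene, so the 2 stretches are alike only by the RefSeq starts. Capitals mark matches to the letters GGCGCC, the core of the known BMP response element of *Hamp*, and to TTCNNNGAA, the letters of a STAT binding site. Both strands were searched, and the letters do not overlap.
Hamp: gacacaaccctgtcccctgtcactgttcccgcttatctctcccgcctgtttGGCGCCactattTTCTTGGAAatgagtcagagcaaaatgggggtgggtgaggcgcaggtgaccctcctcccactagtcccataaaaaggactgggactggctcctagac
Hamp2: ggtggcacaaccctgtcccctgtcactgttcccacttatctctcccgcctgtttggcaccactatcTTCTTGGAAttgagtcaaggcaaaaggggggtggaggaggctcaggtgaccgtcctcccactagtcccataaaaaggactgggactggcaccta
The *Hamp* stretch held GGCGCC from position -109 and TTCNNNGAA from position -97, counted back from the start. The *Hamp2* stretch held TTCNNNGAA from position -94 and no GGCGCC, with the substitution G4A inside the aligned element, positions being counted from 1 at its 5′ end. Over the 300-base windows of the RefSeq table, 276 of 297 aligned bases were identical between the copies (92.9%). GGCGCC was present in 11.9% and TTCNNNGAA in 8.29% of 32817 such windows, so neither is rare. Of the 6 members with an entry in that table, GGCGCC was found for *Hamp* and *Tfrc* and TTCNNNGAA for *Hamp* and *Hamp2*.

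Levels are given as FPKM, fragments per kilobase of gene length scaled to the size of each library, which can be compared between genes. Reads per liver lay between 13367742 and 16163378. limma on log2(FPKM + 1), with adjustment over the 13306 genes, called 0 genes (0.0%) different between the genotypes. At an unadjusted p under 0.05, 3.05% of genes were higher and 2.72% lower in ASK1+hep, 768 in all. limma-voom on the recovered reads called 0 genes and, with sample quality weights, 1 gene. The median log2 fold change of all genes tested was -0.0065, and -0.052 when livers were scaled by all reads. ASK1+hep replicate 3 lay farthest from the other livers of its genotype, with a root mean square distance of 0.507 on the log2 scale, against 0.220 to 0.404 for the other 9 livers. *Map3k5* itself was at 6.74, 6.88, 5.77, 4.71 and 19.8 FPKM in ASK1f/f and at 16.4, 11.1, 7.68, 12.4 and 15.2 FPKM in ASK1+hep. Its highest level was thus in the library labelled ASK1f/f replicate 5, against the label, so results are also given without that library and without ASK1+hep replicate 3. In bulk liver, fewer cells of a type and less RNA per cell cannot be told apart.

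Hepcidin varied more from mouse to mouse than it differed between the genotypes. *Hamp*, on chromosome 7 at chr7:30942368-30944032, was the most abundant of the 10 genes, with a median of 1724 FPKM, above 99.7% of the genes tested. In ASK1f/f replicates 1 to 5 it was at 1735, 3342, 1550, 1713 and 878 FPKM, a mean of 1844 ± 907 (SD, n = 5). In ASK1+hep replicates 1 to 5 it was at 761, 3991, 5054, 2724 and 788 FPKM, a mean of 2663 ± 1912 (SD, n = 5). ASK1+hep livers lay at both ends, 2 above and 2 below every ASK1f/f liver, and the highest liver exceeded the lowest 6.64-fold. The log2 fold change of ASK1+hep over ASK1f/f was 0.26 (SE 0.56, 95% interval -0.97 to 1.48), which did not pass the test (limma, adjusted p = 0.918). An exact two-sided permutation test over all splits into 5 and 5 gave p = 0.683, where the smallest p possible is 0.00794. Without ASK1+hep replicate 3 this value was -0.08, and without ASK1f/f replicate 5 it was 0.02, so its sign changed with a single liver.

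*Hamp2*, at chr7:30922372-30924681, stood at a small fraction of *Hamp*. It was at 3.18, 2.61, 11.8, 12.5 and 0.446 FPKM in ASK1f/f (6.11 ± 5.62, SD, n = 5) and at 2.31, 2.39, 7.72, 3.60 and 0.996 FPKM in ASK1+hep (3.40 ± 2.58, SD, n = 5). The highest values were in ASK1f/f replicates 3 and 4, and every ASK1+hep value lay inside the ASK1f/f range. Between livers it varied 28.1-fold, the widest range of the 10 genes, on only 4 to 111 reads per liver. Its log2 fold change was -0.41 (SE 0.58, 95% interval -1.69 to 0.86, limma, adjusted p = 0.875, exact permutation p = 0.548). It was -0.88 without ASK1f/f replicate 5, -0.71 without ASK1+hep replicate 3 and -1.17 without both (limma, adjusted p = 0.784), but -0.09 and -0.07 without ASK1f/f replicates 3 and 4. *Hamp2* made up 0.0507% to 0.756% of the summed FPKM of both genes. The longest transcripts of the copies were identical at 388 of 410 aligned bases, and 16.6% of the 50-base windows of *Hamp* occurred exactly in *Hamp2*, so reads may be shared between them and the lower gene is the less certain.

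**Figure D1:**
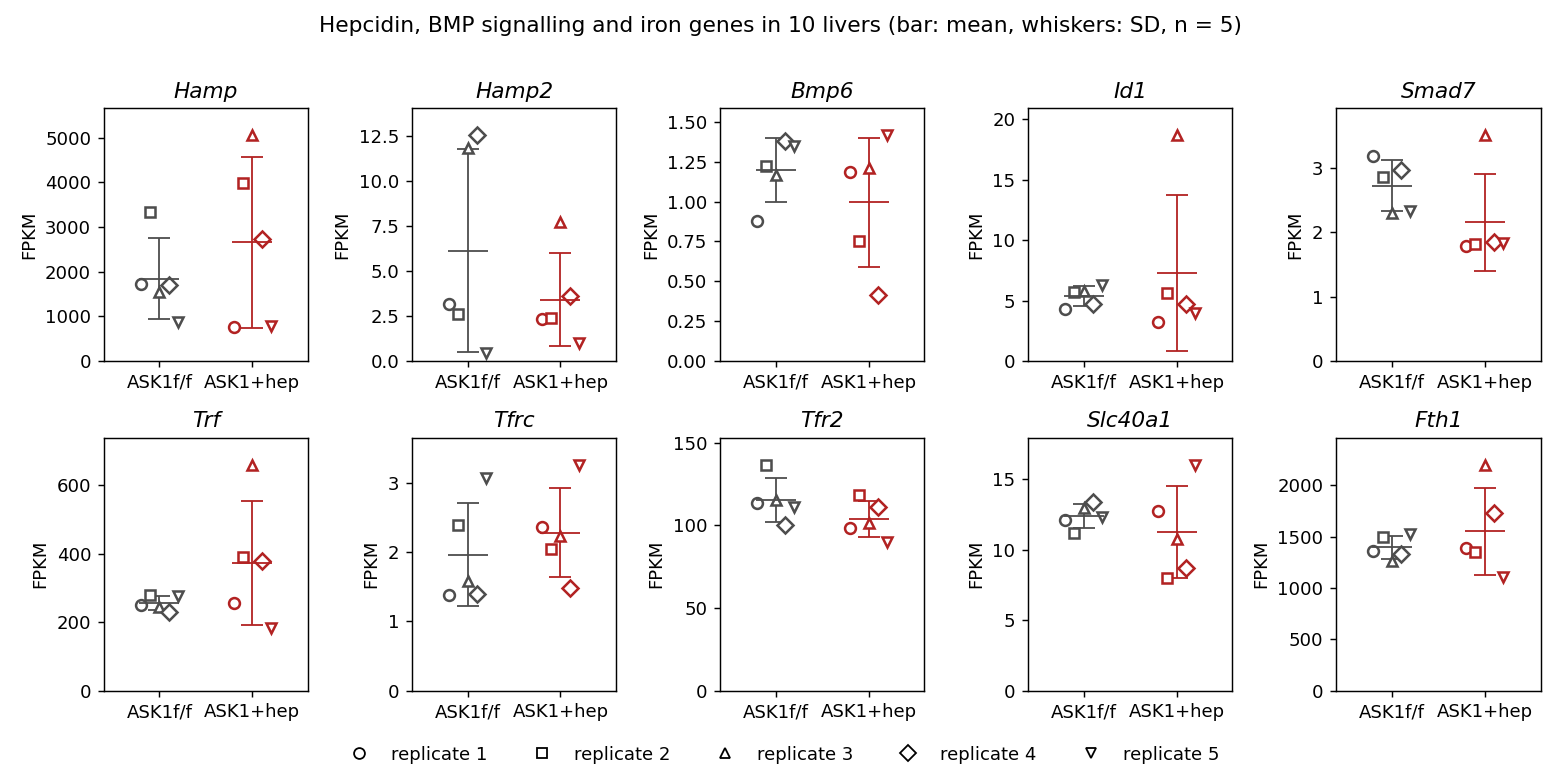
FPKM (linear axis from 0) of each gene in each liver, with 1 panel per gene, symbols for replicate numbers, horizontal bars for group means and whiskers for SD (n = 5). *Hamp* spread from 761 to 5054 FPKM within ASK1+hep, while 4 of the 5 ASK1+hep livers were below every ASK1f/f liver for *Smad7* and the fifth was above them.

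Of the BMP arm, *Smad7* came nearest to a genotype difference, and none of its genes passed the test. The ligand gene *Bmp6*, at chr13:38345107-38500302, was the lowest of the 10 genes. It was at 0.875, 1.22, 1.17, 1.38 and 1.35 FPKM in ASK1f/f (1.20 ± 0.201, SD, n = 5) and at 1.19, 0.754, 1.21, 0.417 and 1.41 FPKM in ASK1+hep (0.997 ± 0.404, SD, n = 5). The lowest and the highest value were both in ASK1+hep, and the groups overlapped. Its log2 fold change was -0.16 (SE 0.14, 95% interval -0.46 to 0.14, limma, adjusted p = 0.821, exact permutation p = 0.349), on 24 to 82 reads per liver. The 12 sinusoidal endothelial markers, genes of the cells that make BMP6, summed to 51.6 to 76.1 FPKM in ASK1f/f and 40.7 to 77.1 FPKM in ASK1+hep, 3 of 12 being higher and 9 lower in ASK1+hep, none past the test, at a list median of -0.16 on the log2 scale. Their part in the *Bmp6* values was not tested.

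*Id1*, an inhibitor of helix-loop-helix transcription factors and a direct BMP target at chr2:152736251-152737410, was set apart in a single liver. In ASK1f/f it was at 4.34, 5.69, 5.82, 4.76 and 6.27 FPKM (5.38 ± 0.801, SD, n = 5). In ASK1+hep it was at 3.24, 5.67, 18.6, 4.73 and 4.01 FPKM (7.26 ± 6.43, SD, n = 5). Only ASK1+hep replicate 3 exceeded the ASK1f/f range, and 2 ASK1+hep livers fell below it. The log2 fold change of 0.13 (SE 0.34, 95% interval -0.61 to 0.87, limma, adjusted p = 0.938, exact permutation p = 0.944) turned to -0.25 without that liver.

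*Smad7*, the inhibitory SMAD that feeds back on BMP and TGF-β receptors, lies on chromosome 18 (chr18:75367529-75395935). It was at 3.18, 2.85, 2.29, 2.96 and 2.33 FPKM in ASK1f/f (2.72 ± 0.395, SD, n = 5). It was at 1.79, 1.81, 3.50, 1.84 and 1.83 FPKM in ASK1+hep (2.16 ± 0.752, SD, n = 5). ASK1+hep replicates 1, 2, 4 and 5 lay together below every ASK1f/f liver, and ASK1+hep replicate 3 lay above every one. The log2 fold change was -0.26 (SE 0.15, 95% interval -0.58 to 0.06) and did not pass the test (limma, adjusted p = 0.812, exact permutation p = 0.0952). Leaving out ASK1+hep replicate 3 moved it to -0.39 (adjusted p = 0.783), and leaving out both that liver and ASK1f/f replicate 5 to -0.43 (adjusted p = 0.295).

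The plasma carrier, the iron sensor and the storage subunit were abundant and narrow in range in ASK1f/f. *Trf*, which encodes transferrin, lies at chr9:103204001-103230444. It was at 251, 280, 246, 230 and 276 FPKM in ASK1f/f (257 ± 21.1, SD, n = 5). It was at 257, 392, 660, 378 and 182 FPKM in ASK1+hep (374 ± 182, SD, n = 5). ASK1+hep replicates 2, 3 and 4 were above every ASK1f/f liver and replicate 5 was below every one. Its log2 fold change of 0.41 (SE 0.28, 95% interval -0.20 to 1.02) had the lowest adjusted p of the iron genes and did not pass the test (limma, adjusted p = 0.812, exact permutation p = 0.214). Without ASK1+hep replicate 3 it was 0.17, and without ASK1+hep replicate 5 it was 0.64 (limma, unadjusted p = 0.0184).

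*Fth1*, the ferritin heavy chain that oxidises iron for storage, at chr19:9982703-9985092, was second to *Hamp* in level. It was at 1356, 1497, 1261, 1330 and 1527 FPKM in ASK1f/f (1394 ± 113, SD, n = 5) and at 1392, 1345, 2197, 1731 and 1103 FPKM in ASK1+hep (1554 ± 424, SD, n = 5). As for *Trf*, replicate 3 was the highest and replicate 5 the lowest ASK1+hep liver. The log2 fold change was 0.12 (SE 0.20, 95% interval -0.31 to 0.55, limma, adjusted p = 0.894, exact permutation p = 0.540) and -0.02 without ASK1+hep replicate 3. The 2 other ferritin heavy chain loci in the table held at most 3 reads together in a liver, against 13161 to 26212 reads on *Fth1*.

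*Tfr2*, the transferrin receptor of hepatocytes that senses iron-loaded transferrin, at chr5:137569840-137587481, was the steadiest of the 10 genes, with a 1.52-fold range over the livers. It was at 114, 137, 115, 100 and 111 FPKM in ASK1f/f (116 ± 13.2, SD, n = 5) and at 98.5, 118, 102, 111 and 90.1 FPKM in ASK1+hep (104 ± 11.0, SD, n = 5). ASK1+hep replicates 1 and 5 were below every ASK1f/f liver. *Tfr2* differed by a log2 fold change of -0.15 (SE 0.12, 95% interval -0.41 to 0.11, limma, adjusted p = 0.815, exact permutation p = 0.198).

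*Tfrc*, the transferrin receptor through which most cells take up iron, at chr16:32608920-32632794, was far lower. It was at 1.38, 2.39, 1.59, 1.39 and 3.08 FPKM in ASK1f/f (1.97 ± 0.746, SD, n = 5) and at 2.36, 2.05, 2.24, 1.49 and 3.26 FPKM in ASK1+hep (2.28 ± 0.643, SD, n = 5). Replicate 5 was the highest liver of each genotype, and the groups overlapped over almost their whole range. *Tfrc* differed by a log2 fold change of 0.16 (SE 0.18, 95% interval -0.23 to 0.55, limma, adjusted p = 0.852, exact permutation p = 0.444). *Tfrc* is high in red cell precursors, and summed erythroid markers were at 339 to 494 FPKM in ASK1f/f and 326 to 1057 FPKM in ASK1+hep. Of the 12 listed erythroid markers, 6 were tested, 4 were higher and 2 lower in ASK1+hep, 2 of them at an unadjusted p under 0.05, and none passed the adjusted threshold. The list median was 0.61 on the log2 scale (0.57 without ASK1+hep replicate 3 and 0.56 without ASK1f/f replicate 5), and *Slc4a1*, *Epb42* and *Gata1* were each at 0 in some livers. Their part in the *Tfrc* values was not tested.

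*Slc40a1*, the ferroportin gene and hepcidin's target protein, at chr1:45908068-45926523, was tight in ASK1f/f and spread out in ASK1+hep. It was at 12.1, 11.2, 13.0, 13.4 and 12.4 FPKM in ASK1f/f (12.4 ± 0.857, SD, n = 5) and at 12.8, 8.03, 10.7, 8.74 and 16.0 FPKM in ASK1+hep (11.3 ± 3.24, SD, n = 5). ASK1+hep replicates 2, 3 and 4 lay below every ASK1f/f liver and replicate 5 above every one. *Slc40a1* differed by a log2 fold change of -0.17 (SE 0.16, 95% interval -0.52 to 0.19, limma, adjusted p = 0.835, exact permutation p = 0.349). Ferroportin is also made by Kupffer cells, whose 12 markers summed to 194 to 327 FPKM in ASK1f/f and 124 to 289 FPKM in ASK1+hep. All 12 of these markers were lower in ASK1+hep, by a median log2 fold change of -0.22 (-0.12 without ASK1f/f replicate 5), and none passed the test. Their part in the *Slc40a1* values was not tested.

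**Figure D2:**
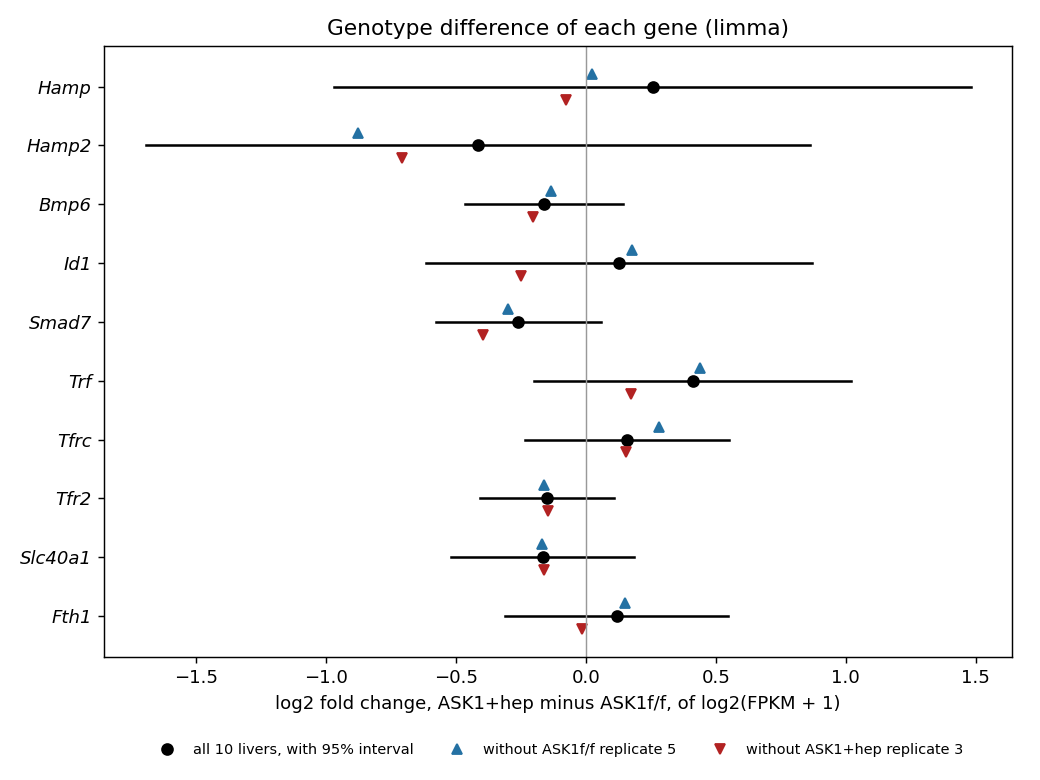
log2 fold change of ASK1+hep over ASK1f/f for each gene on the log2(FPKM + 1) scale, with circles and lines for the value and 95% interval over all 10 livers and triangles for the value without ASK1f/f replicate 5 (up) or ASK1+hep replicate 3 (down). Every interval includes 0, and *Hamp*, *Id1* and *Fth1* cross 0 without ASK1+hep replicate 3.

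Over the 10 genes, 5 were higher and 5 lower in ASK1+hep, and the log2 fold changes had a median of -0.02. Of them 0 passed the adjusted threshold in limma, 0 had an unadjusted p under 0.05, and 0 had groups that did not overlap, which 0.864% of all genes tested had. With limma-voom on the recovered reads, with or without quality weights, 0 of the 10 genes passed the adjusted threshold either. In some of the alternatives the unadjusted limma p was under 0.05, in 4 for *Smad7* and in 1 each for *Hamp2*, *Trf* and *Slc40a1*. Each of those alternatives also had 604 to 1724 of the 13306 genes under that p, against 768 in the main test. The 1724 were without ASK1+hep replicate 5, and 2 of the 10 genes were among them. Ordered by median FPKM, the genes ran *Hamp* (1724), *Fth1* (1374), *Trf* (267), *Tfr2* (111), *Slc40a1* (12.2), *Id1* (5.21), *Hamp2* (2.90), *Smad7* (2.31), *Tfrc* (2.15) and *Bmp6* (1.20). *Fth1* over *Trf*, *Trf* over *Tfr2*, *Tfr2* over *Slc40a1* and *Tfrc* over *Bmp6* held in all 10 livers. The other neighbours changed places: *Hamp* was above *Fth1* in 7 livers, *Slc40a1* above *Id1* in 9, *Id1* above *Hamp2* in 8, *Hamp2* above *Smad7* in 7 and *Smad7* above *Tfrc* in 6.

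The spread between livers was wider in ASK1+hep for most of these genes. The SD of log2(FPKM + 1) was larger in ASK1+hep than in ASK1f/f for 7 of the 10 genes, all but *Hamp2*, *Tfrc* and *Tfr2*, and the median ratio of the SDs was 2.11. Of all genes tested, 75.0% were also wider in ASK1+hep, with a median ratio of 1.55, so the share among the members was near that of the background. Without ASK1+hep replicate 3 it was still 7 of 10 (66.0% of all genes), and without replicates 3 and 5 it was 6 of 10 (57.8%). ASK1+hep replicate 3 had the highest level of *Hamp*, *Id1*, *Smad7*, *Trf* and *Fth1*, 5 of the 10 genes. ASK1+hep replicate 5 had the highest level of *Tfrc*, *Slc40a1* and *Bmp6* and the lowest of *Trf*, *Tfr2* and *Fth1*. ASK1+hep replicate 1 had the lowest level of *Hamp*, *Id1* and *Smad7*.

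**Figure D3:**
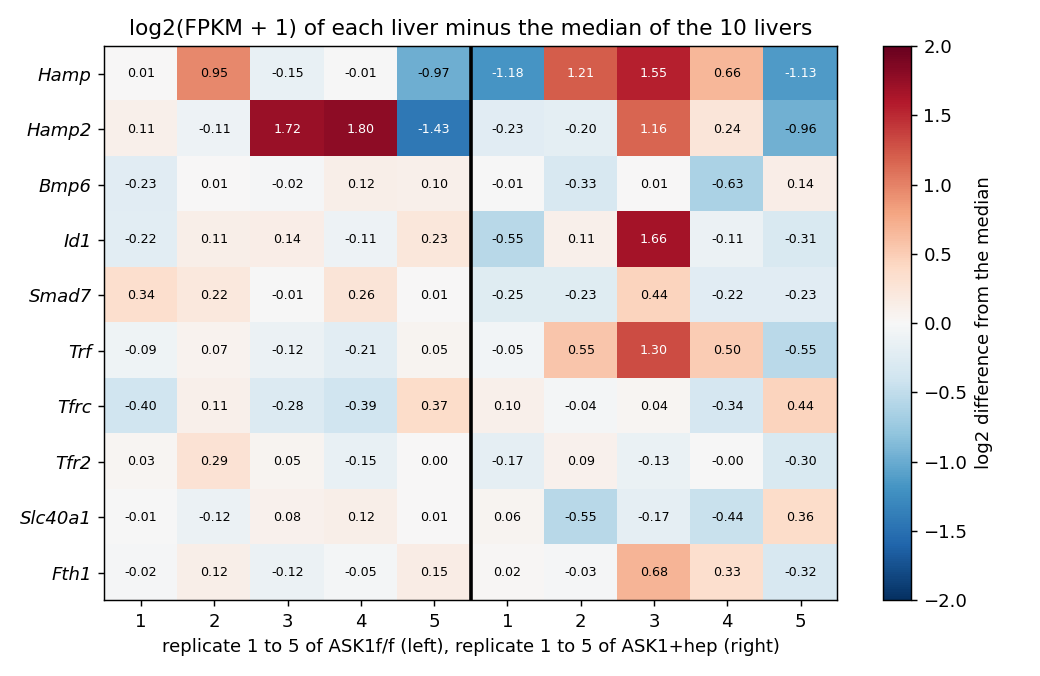
Heat map of log2(FPKM + 1) of each gene (rows) in each liver (columns, 5 of each genotype) minus that gene's median over the 10 livers, with the difference written in each cell. ASK1+hep replicate 3 was 1.55 above the median for *Hamp*, 1.66 for *Id1* and 1.30 for *Trf*, while ASK1+hep replicate 5 was 1.13 below it for *Hamp*.

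A set of 6 relations across the 10 livers asked whether BMP ligand, BMP targets and the hormone genes varied together, with permutation p-values adjusted over the 6. *Id1* and *Hamp* had Pearson's r = 0.638 (permutation p = 0.0179, adjusted 0.107) and Spearman's rho = 0.515 (permutation p = 0.134, adjusted 0.296), and r fell to 0.238 without the 2 livers farthest from the median of *Id1*. The relation of *Id1* and *Smad7* (r = 0.585, permutation p = 0.0374, adjusted 0.112, rho = 0.515, permutation p = 0.131) rested on such livers, ASK1+hep replicates 1 and 3, since r was -0.0087 without them. *Smad7* and *Hamp* had r = 0.416 (permutation p = 0.228, adjusted 0.282, rho = 0.467, permutation p = 0.181), and 0.202 without the 2 farthest livers. *Bmp6* and *Hamp* went in opposite directions, r = -0.438 (permutation p = 0.207, adjusted 0.282, rho = -0.406, permutation p = 0.247), and -0.25 without the 2 farthest livers. *Hamp2* and *Hamp* had r = 0.411 (permutation p = 0.235, adjusted 0.282, rho = 0.418, permutation p = 0.231), which was 0.753 without ASK1f/f replicates 3 and 4, the livers with the most *Hamp2*. *Fth1* and *Tfrc*, whose mRNAs are both bound by iron regulatory proteins, had r = -0.076 (permutation p = 0.843, rho = 0.042, permutation p = 0.919), and -0.0226 without the 2 farthest livers. None of the 6 passed the adjusted threshold by either measure.

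All 45 pairs of the 10 genes were then compared, a choice made after the values had been seen. *Trf* and *Slc40a1* had rho = -0.927 (permutation p = 0.0003, 0.0135 adjusted over the 45 pairs), the only pair past the adjusted threshold by rank, and r = -0.712 (permutation p = 0.0228, adjusted 0.128). Their r was -0.980 without the 2 livers farthest from the median of *Trf*, and -0.782 without those of *Slc40a1*. It was -0.984 without ASK1+hep replicate 3, -0.614 without ASK1+hep replicate 5 and -0.671 with each genotype centred on its own mean. Of the other 13305 genes tested, 30.6% correlated with *Trf* at least as strongly by r and 7.51% with *Slc40a1*. Such shares were not computed for rho, the measure by which the pair passed. *Hamp* and *Slc40a1* also ran in opposite directions, with r = -0.742 and rho = -0.794 (permutation p = 0.0133 and 0.0091, adjusted 0.110 and 0.137), and -0.691 without the 2 livers farthest from the median of *Hamp*. *Trf* and *Fth1* had the strongest r of all pairs, 0.893 (permutation p = 0.0012, adjusted 0.054, rho = 0.794, permutation p = 0.00847, adjusted 0.137), which was 0.964 without the 2 farthest livers of *Trf* and 0.592 without those of *Fth1*. *Slc40a1* and *Bmp6* had r = 0.791 (permutation p = 0.00674, adjusted 0.101, rho = 0.709, permutation p = 0.0266), and 0.441 without the 2 farthest livers. By r, 0 of 45 pairs passed the adjusted threshold. For *Hamp* and *Slc40a1*, 13.7% of other genes correlated at least as strongly with *Hamp* and 5.40% with *Slc40a1*. These shares were 8.39% and 3.51% for *Trf* and *Fth1*, and 2.71% and 0.676% for *Slc40a1* and *Bmp6*. Within ASK1+hep, replicates 2, 3 and 4 had the most *Hamp* and *Trf* and the least *Slc40a1*, and replicate 5 had the least *Trf* and the most *Slc40a1*. Over all genes tested, replicates 3 and 5 were also the livers farthest from the others of their genotype, by 0.507 and 0.404. Hepatocyte markers went either way between replicates 3 and 5. *Cps1* was at 94.9 and 616 FPKM in them and *Tat* at 545 and 1308 FPKM. In the other direction, *Apoa1* was at 17107 and 6402 FPKM and *Ttr* at 8129 and 3758 FPKM. *Cyp2e1* was nearly level, at 3739 and 3654 FPKM. Large differences between these livers were thus also seen outside the 10 genes, in both directions.

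**Figure D4:**
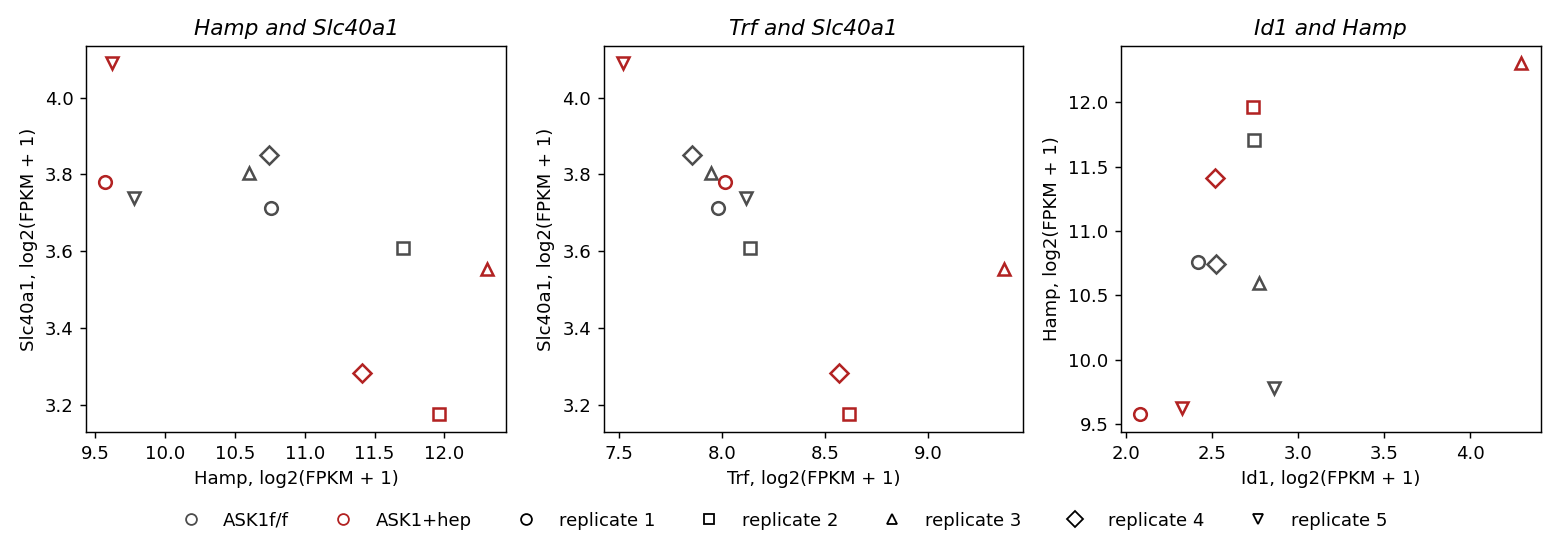
log2(FPKM + 1) of pairs of genes in the 10 livers, with colour for genotype and symbols for replicate number. *Slc40a1* fell as *Hamp* (rho = -0.794) and *Trf* (rho = -0.927) rose, and the *Id1* and *Hamp* panel shows ASK1+hep replicate 3 alone at the far right.

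The genes most alike in pattern to each member were found by Pearson's r of log2(FPKM + 1) over the 10 livers, as a description with no test. For *Hamp* these were *Siah2* (0.952), *Aldh16a1* (0.949), *mt-Tq* (0.938), *Atp5g1* (0.938) and *Gtf2h4* (0.937), of which *mt-Tq* had as few as 4 reads in a liver. For the BMP arm they were *Rab31* for *Bmp6* (0.915), *Lgals1* for *Id1* (0.977, and 0.866 without ASK1+hep replicate 3) and *Serpina4-ps1* for *Smad7* (0.931). For the iron genes they were *Dapk3* for *Trf* (0.993), *Lipe* for *Fth1* (0.983), *Sft2d2* for *Slc40a1* (0.955), *Serpinf2* for *Tfr2* (0.923) and *Fmnl2* for *Tfrc* (0.922). *Hamp2* was most like *Wwox* (0.920).

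The other genes of these pathways were followed with 8 lists of 127 genes, of which 126 were found and 116 tested. limma called 0 of them at the adjusted threshold, with 3 higher and 7 lower in ASK1+hep at an unadjusted p under 0.05. Together these were 8.62% of the 116, while 3.05% of all genes tested were higher and 2.72% lower at that p. In all, 33 were higher and 83 lower in ASK1+hep, and their log2 fold changes had a median of -0.09. Of all genes tested, 48.0% were higher. Among 11 BMP ligands and antagonists, 5 were higher and 6 lower. *Fst*, which encodes the activin and BMP antagonist follistatin, was at 0.328 ± 0.0795 FPKM in ASK1f/f and 0.682 ± 0.288 in ASK1+hep (SD, n = 5). *Bmp7* was at 1.21 and 1.50 FPKM, and *Erfe*, which encodes the red cell precursors' inhibitor of BMP6, had no reads in any liver. Among 14 BMP receptors and co-receptors, 4 were higher and 10 lower. *Tmprss6*, the protease that cuts the co-receptor hemojuvelin, was at 163 and 144 FPKM, *Bambi*, a decoy receptor, at 0.622 and 0.743 FPKM, and *Fkbp1a*, a binder of type I receptors, at 12.9 and 15.5 FPKM. Among 12 SMADs and BMP targets, 5 were higher and 7 lower, with *Id4* at 0.207 and 0.291 FPKM, *Smurf1* at 3.15 and 3.67 and *Smad1* at 2.75 and 2.45.

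Among 18 genes of iron uptake and transport, 5 were higher and 13 lower in ASK1+hep. *Steap4*, a metalloreductase, was at 80.9 ± 48.5 FPKM in ASK1f/f and 33.8 ± 9.91 in ASK1+hep (SD, n = 5), a log2 fold change of -1.09 (SE 0.37, limma, adjusted p = 0.812). ASK1f/f replicates 2 and 5 had 142 and 125 FPKM of it, and the other 3 ASK1f/f livers, at 41.2 to 51.9 FPKM, were near the ASK1+hep livers, at 19.6 to 42.9 FPKM. *Slc39a14*, the transporter that brings non-transferrin-bound iron into hepatocytes, was at 30.1 ± 10.5 and 19.1 ± 5.83 FPKM, a log2 fold change of -0.63, and *Steap3*, the endosomal ferrireductase, at 3.54 and 2.97 FPKM. Among 15 genes of iron storage and handling, 5 were higher and 10 lower, with *Aco1*, the cytosolic aconitase that doubles as an iron regulatory protein, at 54.8 ± 4.02 and 45.0 ± 7.07 FPKM. Among 18 heme genes, 7 were higher and 11 lower. *Blvrb*, a biliverdin reductase, was at 34.9 ± 5.40 and 58.7 ± 27.7 FPKM, *Lrp1*, the receptor for hemopexin-bound heme, at 44.9 and 34.5, and *Cd163*, the haptoglobin-hemoglobin receptor, at 2.23 and 1.70.

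None of the 13 tested genes of the inflammatory inputs to hepcidin passed the test. Of them 2 were higher and 11 lower in ASK1+hep, at a list median of -0.17 on the log2 scale, which was -0.08 without ASK1+hep replicate 3 and -0.12 without ASK1f/f replicate 5. *Tyk2* was at 4.02 and 3.44 FPKM, and *Jak1* at 12.9 and 10.9 FPKM. Of 16 STAT3-responsive acute phase genes, 16 were lower, with a median log2 fold change of -0.65 (-0.36 without ASK1+hep replicate 3 and -0.45 without ASK1f/f replicate 5). *Orm1*, an acute phase plasma protein gene, was at 976 ± 428 FPKM in ASK1f/f and 563 ± 165 in ASK1+hep (SD, n = 5), and *Itih4* at 588 ± 348 and 286 ± 104 (adjusted p = 0.812 for both, limma). Here too ASK1f/f replicates 2 and 5 stood above the rest, with 1414 and 1462 FPKM of *Orm1*, against 549 to 731 FPKM in the other 3 ASK1f/f livers and 402 to 824 FPKM in ASK1+hep. For *Itih4* they had 1121 and 757 FPKM, against 310 to 425 FPKM in the other 3 ASK1f/f livers and 111 to 377 FPKM in ASK1+hep. Summed over the 16 genes, these livers had 15646 and 9984 FPKM, and the median ASK1f/f liver, at 5019 FPKM, was inside the ASK1+hep range of 2557 to 6392 FPKM. *Hamp*, which STAT3 also drives, had a log2 fold change of 0.26, and of -0.08 without ASK1+hep replicate 3. *Steap4* is in both this list and the uptake list.

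**Figure D5:**
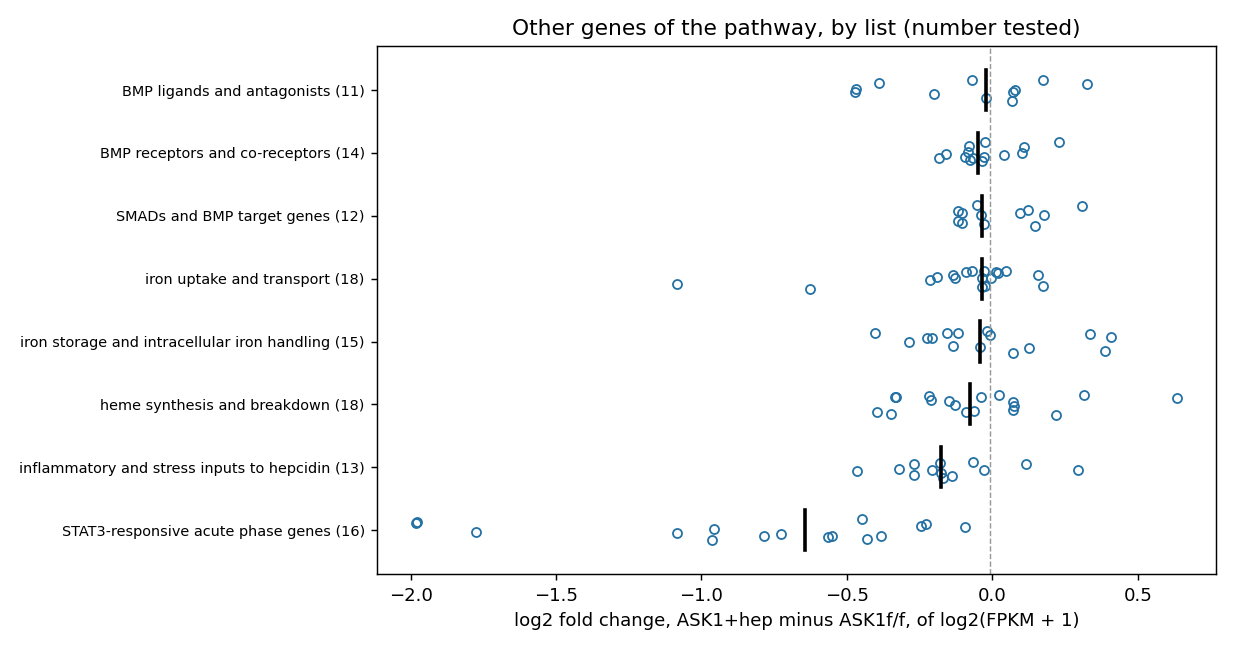
log2 fold change of ASK1+hep over ASK1f/f on the log2(FPKM + 1) scale for each tested gene (circles) of the 8 pathway lists, with black bars for list medians and a dashed line at the median of all genes tested. List medians lay between -0.65, for the STAT3-responsive acute phase genes, and -0.02, for the BMP ligands and antagonists.

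Markers of the cells in the tissue were checked beside these values. Hepatocyte markers summed to 34097 to 46425 FPKM in ASK1f/f and 40479 to 49826 FPKM in ASK1+hep, against 60.0 to 112 and 65.5 to 120 FPKM for stellate cell markers, 13.5 to 32.7 and 15.6 to 28.3 FPKM for cholangiocyte markers, and 1.88 to 2.55 and 1.42 to 3.33 FPKM for lymphocyte markers. *Alb* alone was at 14692 to 25083 FPKM, so the hepatocyte sum says little of its other genes. Of the hepatocyte markers, 4 were higher and 6 lower in ASK1+hep. These counts were 2 and 8 for stellate cell, 2 and 3 for cholangiocyte and 2 and 1 for lymphocyte markers tested. *Xist* was at most 0.0129 FPKM and the Y-linked *Ddx3y* at least 6.02 FPKM in all 10 livers. Their part in the members' values was not tested.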

How the data were processed

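RNA from 10 mouse livers, 5 per genotype label, had been sequenced. The authors mapped cleaned reads (fastp is named in the submitters' notes) with Hisat2, counted them with FeatureCounts and deposited FPKM per gene. Genome build and strand setting are not given in the sources used here. GENCODE M21, on GRCm38, held 54495 of the genes, 98.3% of them at an identical start and end, and coordinates are given on that build. *Fth1* is among those that differed, and keeps the table's coordinates. Without strand, reads of *Bmp6* and of its opposite-strand neighbour *Txndc5* cannot be told apart where they overlap. *Txndc5* had 2221 to 3509 reads per liver, against 24 to 82 for *Bmp6*, and its part in the *Bmp6* values was not tested. *4930579J19Rik*, which also overlaps *Bmp6*, *Gm44662*, which overlaps both hepcidin genes, and *Gm20425*, which overlaps *Trf*, had 0 reads.

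FPKM times gene length gave whole multiples of 1 step per library, within 0.001 reads, and so the reads per gene. A gene was tested if 5 or more livers each had 10 or more reads after scaling to the median total, and if all livers together had 15 or more. The main test was limma 3.58.1 (R 4.3.3) on log2(FPKM + 1), with its prior variance following the mean level, and Benjamini-Hochberg adjustment covered all genes tested. This scale understates changes of low genes. The recovered reads served for the filter, the depth and limma-voom. DESeq2, which the authors used, was not run on them. With that test the authors did report differentially expressed genes in these livers, so the 0 calls hold for the tests used here. Exact two-sided permutation tests were run per gene and 100000 permutations per correlation (SciPy 1.17.1). Data were simulated for 13306 genes of this comparison, 200 of them changed by a log2 fold change of 2. In those data limma recovered 100% of the changed genes and 2.44% of its calls were false. Every simulated gene had the same relative noise beyond that of counting, and no simulated liver was set apart from the others. The real livers differed in both respects, so the 100% does not show what limma could recover in them. Recovery of smaller log2 fold changes was not tested. Those of the 10 genes lay between -0.41, for *Hamp2*, and 0.41, for *Trf*.

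The members and lists were chosen with earlier results of these data known, so lists have counts and medians only. Genes named are the 10 members, *Map3k5*, the 3 non-members with the lowest p in each pathway list, and the genes most alike in pattern, 5 for *Hamp* and 1 for each other member. Some genes that this rule names are not reported here. *Erfe*, *Alb*, *Cps1*, *Tat*, *Apoa1*, *Ttr*, *Cyp2e1*, the sex-linked genes and the erythroid genes at 0 were named after their values were seen. *Mfsd7b* and *Ahsp* were not matched by symbol or synonym. The fits without both doubted libraries, the correlations without ASK1+hep replicate 3 and the 45 pairs were added after seeing the data. Promoter sequences are from RefSeq, matched by symbol and aligned with Biopython 1.88. Figures were drawn with matplotlib 3.10.9.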

Additional observations from a re-analysis of the deposited data

Results flagged for a closer look

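Of 22 groups of 5 values examined for a sample far from the others, 3 held one. The limit used is set for about 1 in 20 groups of independent, normally distributed values. These were untransformed FPKM, and 2 of the 3 lay in the same liver, so the count cannot be set against that rate. The 18.65 FPKM of *Id1* in ASK1+hep replicate 3 stood beyond the other 4 livers of that genotype, which spanned 3.24 to 5.67 FPKM. For *Smad7* the same liver had 3.50 FPKM and the other 4 had 1.79 to 1.84 FPKM. For *Map3k5* ASK1f/f replicate 5, as labelled, had 19.78 FPKM, and its 4 group mates had 4.71 to 6.88 FPKM.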

How the results depend on the processing

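None of the 10 genes passed the adjusted threshold in any of 19 alternatives (18 for *Hamp2*, which had under 10 reads in a liver), and their lowest adjusted p was 0.295, for *Smad7* with both doubted libraries left out. Over all genes, limma called 0, limma-voom with quality weights 1, the fit without both doubted libraries 3, and leaving out each liver in turn 0 to 1, the 1 being without ASK1+hep replicate 5. Of the 13306 genes tested, 768 had an unadjusted limma p under 0.05, but 1178 without ASK1+hep replicate 1 and 1724 without ASK1+hep replicate 5. With no filter there were 1222 of 26389 genes, a smaller share. Leaving out each liver in turn gave log2 fold changes of -0.075 to 0.61 for *Hamp*, -0.016 to 0.23 for *Fth1* and -0.25 to 0.31 for *Id1*, each lowest without ASK1+hep replicate 3. Without both doubted libraries *Hamp* was at -0.31 and *Id1* at -0.20, and with quality weights *Id1* was at -0.12, and the cause was not tested. The other 7 genes kept their direction in every alternative run. Their size moved with single livers, from -0.23 to -0.04 for *Bmp6*, 0.06 to 0.28 for *Tfrc*, -0.20 to -0.09 for *Tfr2*, -0.29 to -0.07 for *Slc40a1* and -0.88 to -0.07 for *Hamp2*. *Smad7* had an unadjusted p of 0.00153 to 0.197 over the alternatives. The r of *Id1* and *Smad7* was -0.0087 without the 2 farthest livers. Same-numbered livers of both genotypes correlated in their deviations by 0.021 to 0.174, a mean of 0.107, against a mean of -0.027 for different numbers. Of these livers, 4 of 5 ASK1f/f and 2 of 5 ASK1+hep correlated best with their own number. Animal tags of same-numbered livers were consecutive in replicates 1 to 4, and replicate 1 of each genotype alone had the prefix SN. No pairing is named, and not all correlations were over 0.1, so the main test took none. Whether the livers are pairs cannot be told from the labels. With the prefix as a covariate, 0 genes were called. The fit with a replicate block called 0 genes, with 880 at an unadjusted p under 0.05, and the pairing changed no call. *Hamp2*, *Bmp6* and *Id1* rest on the fewest reads, as few as 4, 24 and 64 in a liver, which limits what could be detected for them.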
